A study of Homo sapiens with 15 samples.

Results

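The 10 genes described here belong to the Notch pathway: the receptors NOTCH1, NOTCH2 and NOTCH3, the ligands JAG1, JAG2 and DLL1, the target genes HES1 and HEY1, the fringe glycosyltransferase LFNG and the inhibitor NUMB. They were chosen by name, and every array probe whose annotation is a RefSeq transcript of one of them was taken. This gave 13 probes of 42405, and 10 genes of 19483 that could be named through RefSeq. Transcript levels were compared between PE/CA-PJ41 cells, a human oral squamous carcinoma line, labelled as carrying an empty vector (NCE) and the same line carrying a CYGB vector (CYGB+). The study's text calls its NCE control un-transfected, so whether transfection and G418 selection also differ between the groups is not settled. CYGB encodes cytoglobin, a haem-containing globin. The study selected its CYGB+ cells as 1 clone (LST421) after transfection of a pCMV6-Neo plasmid with the human cytoglobin cDNA, so that the groups differ by clone as well as by vector. Both groups were cultured for 24 h before RNA was taken, and 50 ng of RNA was labelled for an Agilent whole-genome array. Each group had 3 biological replicates. The 3 NCE replicates were each hybridised to 3 arrays and the 3 CYGB+ replicates to 2 arrays each, giving 9 and 6 arrays.

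Notch signalling passes between touching cells. A ligand of the Jagged or Delta-like family on the surface of a cell binds a Notch receptor on its neighbour, the receptor is cut by an ADAM protease and then by gamma-secretase, and the freed intracellular domain moves to the nucleus, where it joins the DNA-binding protein RBPJ and switches on HES and HEY genes, themselves transcriptional repressors. Fringe enzymes such as LFNG add sugars to the receptor and change which ligands it answers to, and NUMB holds the pathway back by promoting removal of the receptor. In stratified squamous epithelium the pathway is known for promoting exit from the basal layer and differentiation, and NOTCH1 is known for inactivating mutations in squamous carcinomas.

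The RBPJ complex binds DNA at a core that reads TGGGAA. The letters TGGGAA were searched on both strands in the 250 bases before the start of each RefSeq promoter of build GRCh38.p14, and 20.8% of 35116 promoters held them. A promoter was matched for 8 of the 10 genes, and 2 of these 8, HES1 and LFNG, held the motif. LFNG held it in the promoter at chr7:2517613-2517862 and not in that at chr7:2512279-2512528. A gene was counted if any of its promoters held the motif, whereas the 20.8% is a share of promoters. Among 10 HES, HEY and NRARP genes listed as targets, 9 were matched and 5 held the motif. The promoters of HES1 and HES5 are printed because both are known direct Notch targets and HES5 was called on the arrays whereas HES1 was not, and that of JAG1 because it was the only member called. Each is written 5′ to 3′ along the gene, with the motif in capitals (TTCCCA is the motif on the other strand).
HES1 chr3:194135898-194136147 (plus strand): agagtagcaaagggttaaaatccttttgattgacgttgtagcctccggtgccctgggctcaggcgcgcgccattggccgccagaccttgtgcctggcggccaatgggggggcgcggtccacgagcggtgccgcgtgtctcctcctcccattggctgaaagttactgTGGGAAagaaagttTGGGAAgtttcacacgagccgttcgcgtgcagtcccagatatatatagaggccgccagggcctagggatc
HES5 chr1:2530264-2530513 (minus strand): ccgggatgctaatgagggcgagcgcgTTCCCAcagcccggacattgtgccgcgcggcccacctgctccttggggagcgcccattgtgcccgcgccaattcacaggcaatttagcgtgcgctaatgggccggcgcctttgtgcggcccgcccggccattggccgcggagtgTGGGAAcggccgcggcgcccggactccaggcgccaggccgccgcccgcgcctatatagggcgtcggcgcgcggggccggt
JAG1 chr20:10674000-10674249 (minus strand): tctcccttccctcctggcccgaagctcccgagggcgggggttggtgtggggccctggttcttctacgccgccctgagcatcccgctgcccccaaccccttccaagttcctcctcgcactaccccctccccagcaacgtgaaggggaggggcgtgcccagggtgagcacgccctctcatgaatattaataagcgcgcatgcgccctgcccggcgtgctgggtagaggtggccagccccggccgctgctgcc
The HES1 matches lay 84 and 70 bases before the start, counted at the first base of the match, and the HES5 matches 224 and 80 bases before it. No match was found in the JAG1 window. A match is a run of letters and was not tested for binding.

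All values are log2 of the background-corrected, quantile-normalised signal of the green (Cy3) channel, and a difference is CYGB+ minus NCE over the means of the 3 biological replicates, so that a difference of 1 is a doubling of signal. A probe was called where the Benjamini-Hochberg adjusted p of limma, over all 42405 probes, was below 0.05. The labels give Cy3 for both groups, whereas the methods describe cyanine 5 for the control RNA. The authors' processed values followed the green channel on every array (r of 0.897 to 0.994, against 0.0109 to 0.931 for red), and the green channel was used throughout. The first slide held 8 NCE arrays, and the second slide held the remaining NCE array (replicate 1) with all 6 CYGB+ arrays. Median local background was 24 to 29 on the first slide and 37 to 43 on the second. Slide and group were thus nearly the same split, and a difference between slides cannot be told apart from a difference between groups except through that 1 NCE array. The fits on the second slide alone and with slide as a term used single arrays, with the biological replicate as a random block. Their consensus correlations were -0.0446 and 0.065, so array repeats counted almost as independent. The SE, intervals and calls of these fits thus carry the spread between arrays, not between biological replicates. There were 4 arrays that stood apart, with a best correlation to any other array of their group of 0.216 to 0.303 where the others reached at least 0.424. These were 1 array of NCE replicate 3, the NCE array on the second slide, 1 array of CYGB+ replicate 1 and 1 of CYGB+ replicate 3. Values without them are given beside the results on the Notch genes.

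The CYGB probe did not separate the groups. It read 11.32, 12.06 and 12.39 (lowest, median and highest) over the 9 NCE arrays and 11.30, 11.98 and 12.49 over the 6 CYGB+ arrays, and it was well above background on all 15. The difference was -0.09 (SE 0.26, limma adjusted p = 0.889), and -0.07 (SE 0.32) without the 4 arrays. Whether the probe lies within the transfected cDNA is not given in the sources used here, so the lack of a difference does not check the labels. The study describes its parent line as not expressing cytoglobin, yet the probe was well above background on all 9 NCE arrays. The reason was not tested. The study measured cytoglobin in this clone by other assays, which are not among the data used here. Of 9 squamous epithelial markers (EPCAM, CDH1, KRT5, KRT14, KRT17, KRT6A, TP63, DSG3 and SFN), 9 were well above background on all 15 arrays. Their summed signal was 16.13 to 16.29 (log2) in NCE and 16.09 to 16.44 in CYGB+, and KRT6A was lower in CYGB+ (-0.53, SE 0.09, adjusted p = 0.0349). KRT6A gave -0.01 (SE 0.16) on the second slide alone and -0.02 (SE 0.14) with slide as a term, where it was not called. KRT14 (0.72, SE 0.22, adjusted p = 0.144) was called with the replicate number as a block (adjusted p = 0.0356) and without the 4 arrays (0.80, SE 0.18, adjusted p = 0.0329). On the second slide alone KRT14 gave 0.54 (SE 0.34). CDH1 (-0.37, SE 0.09, limma adjusted p = 0.0390) and DSG3 (-0.28, SE 0.07, limma adjusted p = 0.0408) were also called without the 4 arrays, both lower. Of 7 fibroblast markers, COL3A1, PDGFRB, THY1 and LUM were above background on no array, and COL1A2 alone was above it on all and was lower in CYGB+ (-1.34, SE 0.08, adjusted p = 0.00494, and -1.58, SE 0.13, adjusted p = 0.0129 on the second slide alone), so that the summed fibroblast list read 9.27 to 9.38 in NCE and 8.91 to 8.99 in CYGB+. COL1A1 was above background on 7 of 9 NCE and all 6 CYGB+ arrays, and DCN on 1 CYGB+ array. The 3 endothelial markers summed to 7.73 to 9.48 in NCE and 7.73 to 7.92 in CYGB+. PECAM1 was above background on 1 NCE array alone, where it read 15.45, and its mean in NCE replicate 1 was 9.15. CDH5 was above background on 8 NCE and 6 CYGB+ arrays, and KDR on 1 CYGB+ array. The 3 leukocyte markers summed to 8.64 to 9.06 in NCE and 8.44 to 8.78 in CYGB+. CD14 was above background on all 15 arrays, PTPRC on 3 NCE and 2 CYGB+ arrays and CD3E on 1 NCE and 2 CYGB+ arrays. No gene of the endothelial or leukocyte list was called. Of 6 squamous differentiation genes KRT1 and LOR were above background on no array. KRT10, IVL and TGM1 were above it on all 15 arrays, and FLG on 1 NCE and 1 CYGB+ array. None was called over the 6 replicate means, and the list summed to 13.19 to 13.36 in NCE and 12.94 to 13.47 in CYGB+. Without the 4 arrays TGM1 was called lower (-0.31, SE 0.06, limma adjusted p = 0.0275). The part of these markers in the results on the Notch genes was not tested.

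Of the 10 Notch genes, JAG1 was lower in CYGB+ cells and no gene was called higher. Over all probes 4.66% were called, 2.49% higher and 2.17% lower. JAG1 fell 2.69-fold, and no other member passed. At an unadjusted p below 0.05 limma gave 1 member higher (JAG2) and 2 lower (JAG1 and NUMB), and the methods' t-test gave 0 higher and 2 lower. Over all probes 19.4% and 17.7% had an unadjusted p below 0.05 by these tests. The median difference over the 10 genes was 0.04, and over all probes it was 0.00084. Replicate means of the groups did not overlap for JAG1, JAG2 and NUMB among the genes' brightest probes, and for 5 of the 13 probes, against 26.5% of all probes. Without the 4 arrays that stood apart, 2 of the 10 genes were called, JAG1 and NUMB, both lower, with 12.2% of all probes called. On the second slide alone, where NCE is 1 array, the differences were -1.12 for JAG1, -0.53 for NUMB and 0.15 for JAG2. The array measures RNA from whole cultures, so fewer cells of a kind and less RNA per cell cannot be told apart. Every member probe was well above background on all 15 arrays.

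**Figure D1:**
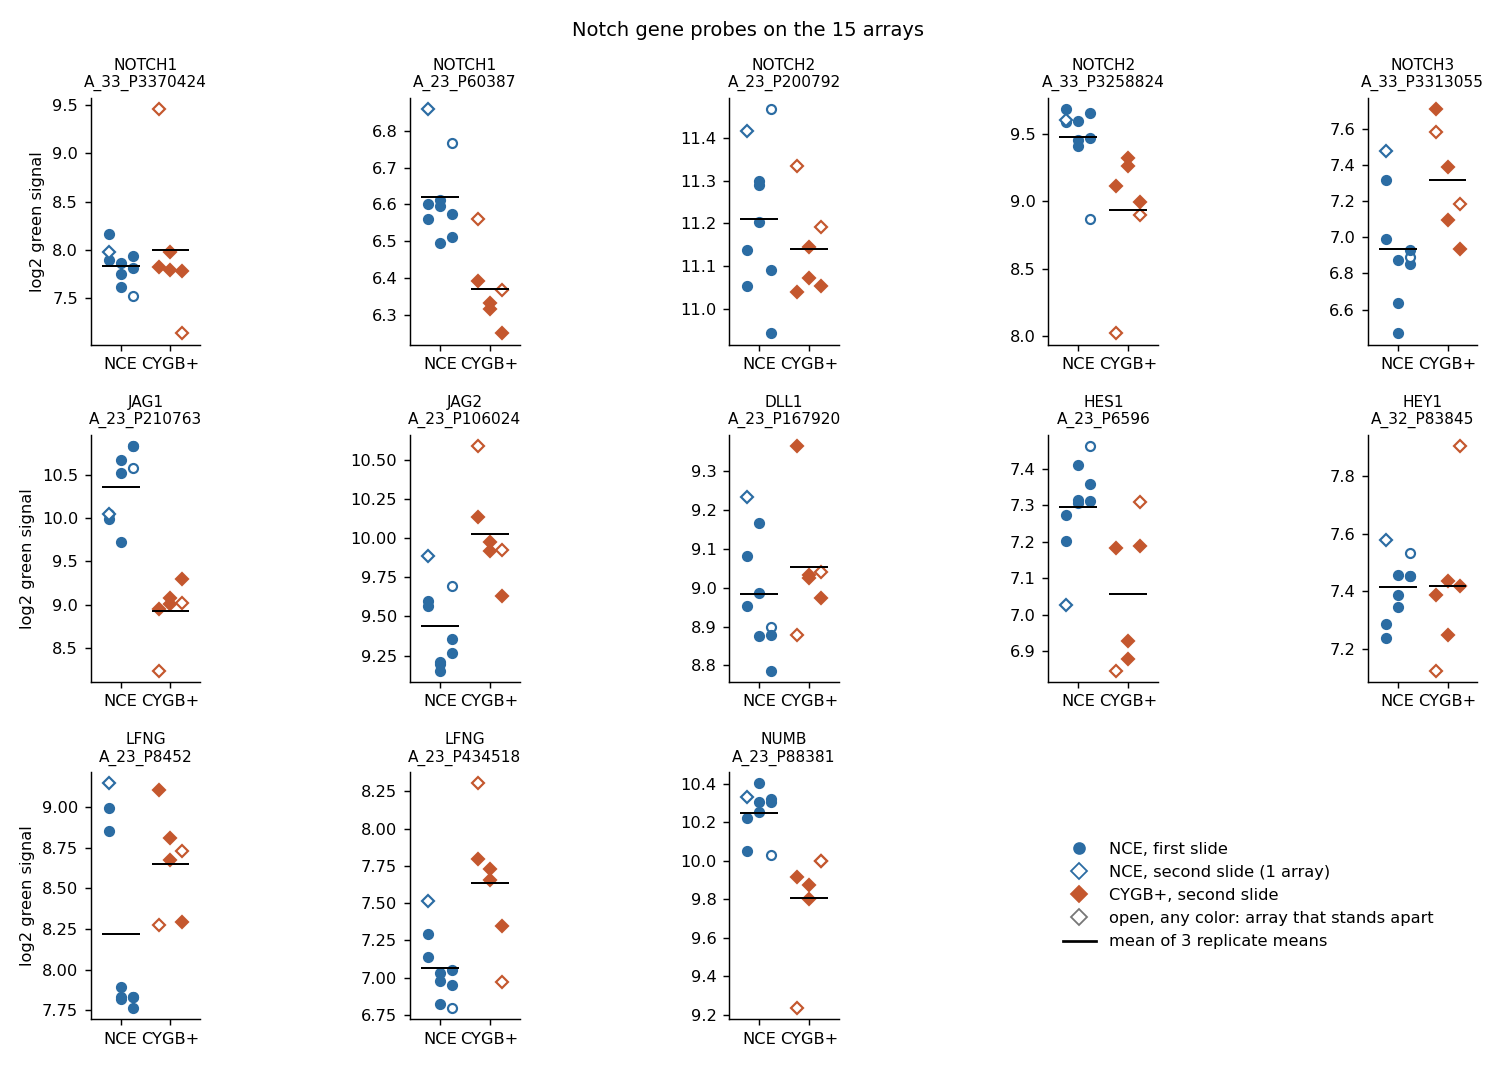
Log2 green signal (vertical axes) of the 13 probes of the 10 Notch genes on the 9 NCE and 6 CYGB+ arrays, with arrays of replicates 1, 2 and 3 from left to right within each group, open symbols for the 4 arrays that stand apart and a black line at the mean of the 3 replicate means. For JAG1 and NUMB every CYGB+ array lies below every NCE array, whereas for the other genes the arrays overlap. Arrays of the groups did not overlap for 5.38% of all probes.

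JAG1, the Jagged1 ligand, was the member with the largest difference. Its replicate means were 10.03, 10.30 and 10.74 in NCE and 8.59, 9.04 and 9.16 in CYGB+. Over arrays it read 9.72, 10.52 and 10.83 (lowest, median and highest) in NCE and 8.24, 9.02 and 9.29 in CYGB+. The groups did not overlap on any array, which held for 5.38% of all probes. The means were 10.36 ± 0.36 and 8.93 ± 0.30 (SD, n = 3), a difference of -1.43 (SE 0.23, 95% interval -1.99 to -0.87, limma adjusted p = 0.0294). The NCE array on the second slide read 10.05, above all 6 CYGB+ arrays of the same slide and within the range of the NCE arrays of the first slide. On that slide alone the difference was -1.12 (SE 0.34, 95% interval -1.92 to -0.31), and its adjusted p was 0.372 by limma. With slide as a term in the fit it was -1.16 (SE 0.39, adjusted p = 0.208), and without the 4 arrays that stood apart -1.29 (SE 0.21, adjusted p = 0.0106). The direction was the same in all 21 alternative settings, and the call was lost in 8 of them. Among these were the fits without NCE replicate 2 (adjusted p = 0.112), NCE replicate 3 (0.0821), CYGB+ replicate 2 (0.0693) and CYGB+ replicate 3 (0.0646), and the methods' t-test (0.132).

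**Figure D2:**
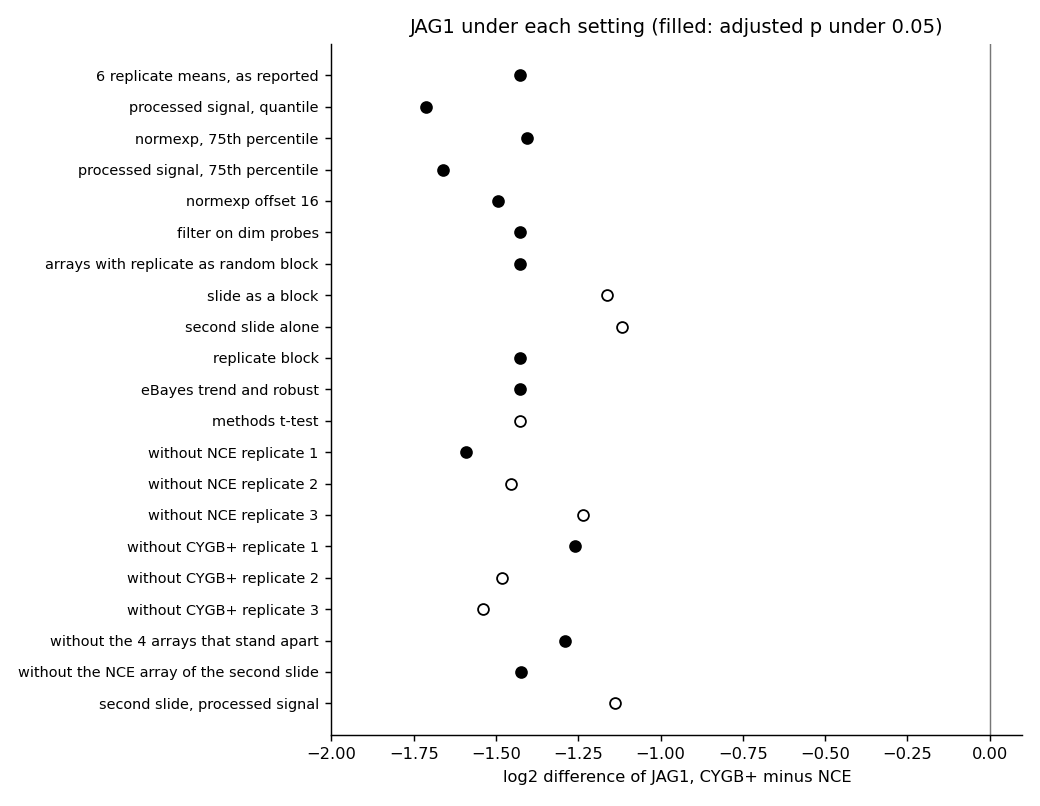
Log2 difference of JAG1, CYGB+ minus NCE, on the scanner values under each setting named at the left, with filled points where the adjusted p was below 0.05. All points lie below 0, between -1.71 and -1.12, and those for the second slide are open.

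JAG2, the Jagged2 ligand, lay on the other side of 0 without passing. Its replicate means were 9.68, 9.19 and 9.44 in NCE and 10.36, 9.95 and 9.78 in CYGB+, so that the groups did not overlap at that level. The difference was 0.59 (SE 0.19, 95% interval 0.13 to 1.06, limma adjusted p = 0.163). The NCE array on the second slide, at 9.88, was above every NCE array of the first slide (9.15 to 9.69) and within the CYGB+ arrays (9.63 to 10.59). The second slide alone gave 0.15 (SE 0.30, 95% interval -0.58 to 0.87). Leaving out the 4 arrays that stood apart gave 0.54 (SE 0.15, adjusted p = 0.0677). Fitting the 15 arrays with the replicate as a random block, where array repeats counted almost as independent, gave a limma adjusted p of 0.0106. Scaling to the 75th percentile gave 0.0375 on the normexp-corrected signal and 0.223 on the processed signal. In that normexp fit the adjusted p of the member probes followed the size of the difference and not their replicate spread.

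DLL1, a Delta-like ligand, showed little difference in signal. Its replicate means were 9.09, 9.01 and 8.85 in NCE and 9.12, 9.03 and 9.01 in CYGB+. The groups overlapped, with a difference of 0.07 (SE 0.07, 95% interval -0.11 to 0.25, adjusted p = 0.674). It was -0.18 (SE 0.16) on the second slide alone and without the 4 arrays 0.17 (SE 0.11). The sign thus moved with the arrays used, and in no setting was the probe called.

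The 3 receptors gave no call on their brighter probes. NOTCH1 was read by a pair of probes that differed from each other. The brighter, A_33_P3370424, gave replicate means of 8.01, 7.75 and 7.76 in NCE and 8.64, 7.89 and 7.46 in CYGB+, a difference of 0.16 (SE 0.30, adjusted p = 0.822). Its CYGB+ spread came from arrays that stood apart, 1 at 9.46 and 1 at 7.14, while the 4 other CYGB+ arrays read 7.78 to 7.98. Leaving out all 4 arrays that stood apart gave -0.05 (SE 0.08). The dimmer, A_23_P60387, is the mean of 10 spots. It read 6.67, 6.57 and 6.62 in NCE and 6.48, 6.32 and 6.31 in CYGB+, with no overlap of replicate means. Its difference was -0.25 (SE 0.06, 95% interval -0.40 to -0.10, adjusted p = 0.0904). That probe gave -0.49 (SE 0.12, adjusted p = 0.221) on the second slide alone, and with slide as a term -0.49 (SE 0.10, adjusted p = 0.0239). Leaving out the 4 arrays gave -0.24 (SE 0.05, adjusted p = 0.0281). It was called in 4 of 20 alternative settings and lay below 0 in all of them.

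NOTCH2, a receptor closely related to NOTCH1, also had a pair of probes. The brighter, A_23_P200792, read 11.20, 11.26 and 11.17 in NCE and 11.19, 11.11 and 11.12 in CYGB+. Its difference was -0.07 (SE 0.05, 95% interval -0.19 to 0.04, adjusted p = 0.475), a narrow interval around 0. The second slide alone gave -0.28 (SE 0.12, adjusted p = 0.639), and the fit without the 4 arrays -0.06 (SE 0.07). The other probe, A_33_P3258824, is annotated to a different NOTCH2 transcript. It gave replicate means of 9.63, 9.49 and 9.33 in NCE and 8.57, 9.29 and 8.95 in CYGB+, which did not overlap. The difference was -0.55 (SE 0.19, adjusted p = 0.194), and without the 4 arrays -0.43 (SE 0.08, adjusted p = 0.022). NOTCH2 has near-identical NOTCH2NL copies in the human genome, and whether they hybridise to these probes was not tested.

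NOTCH3, the third receptor, read 7.26, 6.66 and 6.89 in NCE and 7.64, 7.24 and 7.06 in CYGB+. These overlapped, with a difference of 0.38 (SE 0.21, 95% interval -0.13 to 0.89, adjusted p = 0.393). The second slide's NCE array read 7.47 and the NCE arrays of the first slide 6.47 to 7.32. On the second slide alone the difference was -0.16 (SE 0.28), against 0.39 (SE 0.21) without the 4 arrays.

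LFNG, which glycosylates Notch receptors in the Golgi, had a brighter probe on which NCE replicate 1 stood away from the other NCE replicates. A_23_P8452 gave 8.998, 7.85 and 7.81 in NCE and 8.69, 8.74 and 8.51 in CYGB+, a difference of 0.43 (SE 0.33, 95% interval -0.38 to 1.24, adjusted p = 0.549). All 3 arrays of NCE replicate 1 were high (8.85 to 9.15), those on the first slide included, whereas the other NCE arrays read 7.77 to 7.89 and the CYGB+ arrays 8.27 to 9.11. Without NCE replicate 1 the difference was 0.82 and was called (adjusted p = 0.0322). On the second slide alone, where the NCE array is one of replicate 1, it was -0.50 (SE 0.30). The dimmer probe, A_23_P434518, gave 7.32, 6.94 and 6.93 in NCE and 8.05, 7.69 and 7.16 in CYGB+. Its difference was 0.57 (SE 0.24, adjusted p = 0.28), 0.12 (SE 0.43) on the second slide alone and 0.56 (SE 0.13, adjusted p = 0.0404) without the 4 arrays.

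NUMB, the endocytic adaptor, was lower in each CYGB+ replicate than in any NCE replicate. It read 10.20, 10.32 and 10.22 in NCE and 9.58, 9.84 and 10.00 in CYGB+. Over arrays the lowest, median and highest were 10.03, 10.31 and 10.40 in NCE and 9.24, 9.90 and 10.00 in CYGB+. These did not overlap, JAG1 and NUMB being the 2 probes of 13 of which this was true, against 5.38% of all probes. The difference was -0.44 (SE 0.11, 95% interval -0.72 to -0.17), and the probe did not pass (limma adjusted p = 0.0963). At 10.33 the second slide's NCE array was above all CYGB+ arrays, and the difference there was -0.53 (SE 0.27, adjusted p = 0.761). The difference without the 4 arrays was -0.34 (SE 0.07, adjusted p = 0.0274).

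The target genes HES1 and HEY1, the readouts of the pathway among the members, were not called. HES1 read 7.17, 7.34 and 7.38 in NCE and 7.01, 6.90 and 7.25 in CYGB+. The groups overlapped, and the difference was -0.24 (SE 0.11, 95% interval -0.50 to 0.02, adjusted p = 0.296). The NCE array on the second slide read 7.03, below every NCE array of the first slide (7.20 to 7.46) and within the CYGB+ arrays. The HES1 difference there was 0.03 (SE 0.19, 95% interval -0.43 to 0.49). It was -0.21 (SE 0.09, adjusted p = 0.186) without the 4 arrays. HEY1 read 7.37, 7.40 and 7.48 in NCE and 7.26, 7.34 and 7.66 in CYGB+, a difference of 0.01 (SE 0.11, 95% interval -0.27 to 0.28, adjusted p = 0.986). That of HEY1 was 0.01 (SE 0.06) without the 4 arrays, and on the second slide alone -0.16 (SE 0.25).

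**Figure D3:**
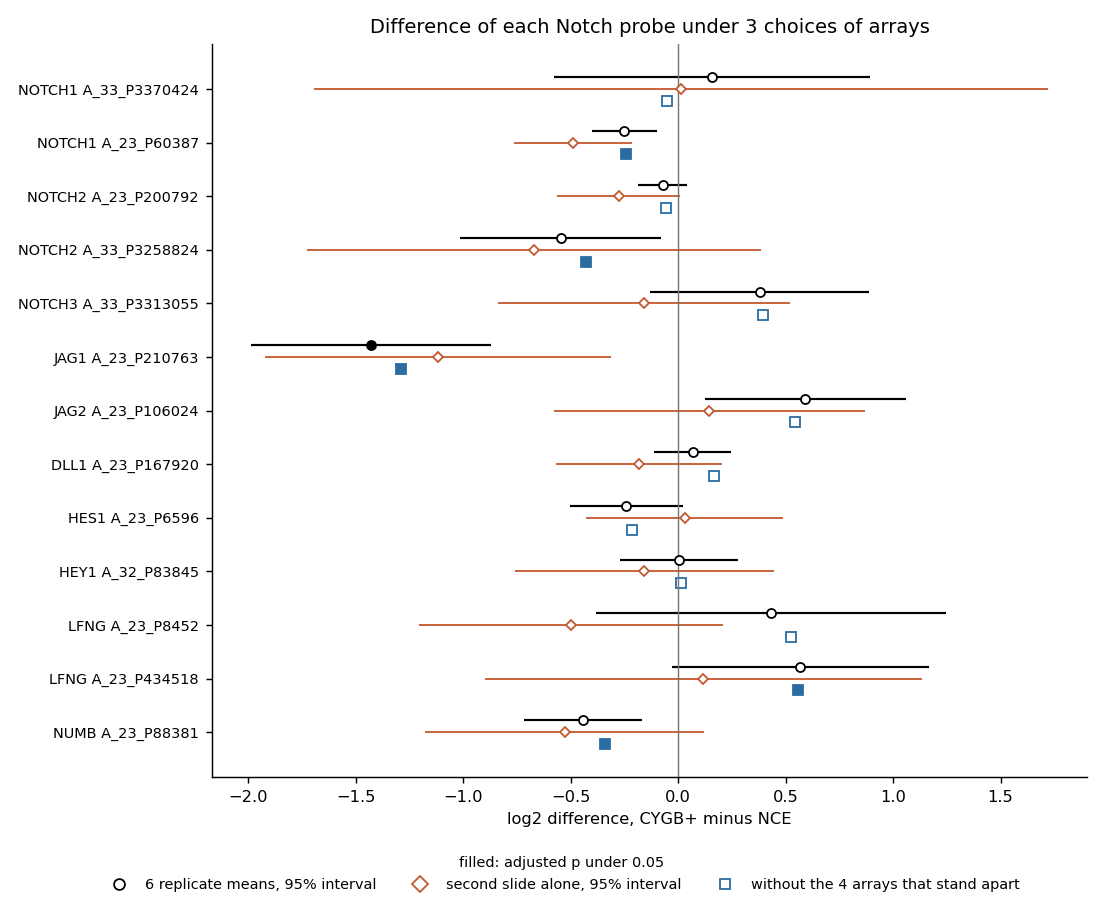
Log2 difference (horizontal axis, CYGB+ minus NCE) of the 13 Notch probes over the 6 replicate means (circles), on the second slide alone (diamonds) and without the 4 arrays that stand apart (squares), with 95% intervals for the first and second of these and filled symbols where the adjusted p was below 0.05. JAG1 lies farthest from 0 in each, at -1.43, -1.12 and -1.29, and NOTCH3, DLL1, HES1, HEY1 and the brighter LFNG probe have the other sign on the second slide.

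The NCE array that shares its slide with CYGB+ was compared with both sets of arrays. It lay outside the range of the 6 CYGB+ arrays for 6 of the 13 probes, all above it: both NOTCH2 probes, the dimmer NOTCH1 probe, JAG1, NUMB and the brighter LFNG probe. Over all probes 31.4% were outside that range. For the other 7 probes it lay among the CYGB+ arrays. It was outside the range of the 8 NCE arrays of the first slide for 8 of the 13. Within that range were the brighter NOTCH1 probe, both NOTCH2 probes, JAG1 and NUMB. The share of all probes outside that range was not computed, so the count has nothing to be set against. As the NCE array of the second slide is 1 array, and one of those that stood apart, the part of the slide was not tested further.

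The wider pathway was described through 57 other Notch genes, all of which had a RefSeq probe. Of these, 2 rose (HES5 and PSEN2), 4 fell (HES2, ITCH, EP300 and POFUT1) and 51 did not pass, where 4.66% of all probes were called, and the median difference was 0.04. In all 24 of the 57 had replicate means that did not overlap, against 26.5% of all probes. These shares include probes not above background, whereas 45 of the 57 genes were above it on all 15 arrays. With only probes above background on at least 6 arrays, 1206 of 22357 were called higher and 1169 lower. Of the 48 wider genes kept by that filter, 5 rose and 4 fell. Without the 4 arrays 5 rose and 7 fell, with 12.2% of all probes called. On the second slide alone 0 rose and 1 fell (HES2), with 0.354% of all probes called, and 3 and 7 genes had an unadjusted p below 0.05 by limma, as had 8.08% of all probes there. Each of the 6 genes called kept its direction in every alternative setting it was measured in, and each lost its call in some. Of the 6 fits that leave out a replicate, HES5 lost it in 2 (without NCE replicate 2 or 3), HES2 in 3 (without NCE replicate 3 or CYGB+ replicate 2 or 3), ITCH in 3 (without NCE replicate 2 or 3 or CYGB+ replicate 3), PSEN2 in 5 (all but that without NCE replicate 1), POFUT1 in 5 (all but that without CYGB+ replicate 1) and EP300 in all 6. EP300 was called in 3 of its 21 alternative settings.

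HES5 and HES2, both HES-family genes, moved in opposite directions. HES5, a classical Notch target, read 7.10, 7.09 and 6.90 in NCE and 7.79, 8.13 and 7.98 in CYGB+, a 1.91-fold rise (difference 0.93, SE 0.10, adjusted p = 0.0122). All 6 CYGB+ arrays (7.78 to 8.26) were above all 9 NCE arrays (6.87 to 7.17), the NCE array on the second slide at 7.09 included. The HES5 difference on that slide was 0.87 (SE 0.18, adjusted p = 0.15), and with slide as a term 0.88 (SE 0.15, adjusted p = 0.00621). HES2 read 7.97, 7.45 and 7.84 in NCE and 6.74, 6.62 and 6.67 in CYGB+, a 2.11-fold fall (difference -1.08, SE 0.14, adjusted p = 0.0161). On the second slide alone it was -1.47 (SE 0.15, adjusted p = 0.0223), HES2 being the 1 gene of the 57 that was called there. The differences were 0.91 and -1.13 without the 4 arrays. HES1, with matches to the same RBPJ core as HES5 in the sequences printed above, gave -0.24 and did not pass. Of the other genes listed as targets HES4 gave 0.27 (adjusted p = 0.409), HES6 0.31 (adjusted p = 0.655), HES7 0.07 (adjusted p = 0.390) and NRARP -0.16 (adjusted p = 0.791). HES7 was well above background on 2 CYGB+ arrays alone, and HEY2 and HEYL on no array. Whether each listed gene answers to Notch in these cells was not tested.

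Among the proteases that cut the receptor 1 of 9 was called. PSEN2, a catalytic subunit of gamma-secretase, read 10.36, 9.97 and 9.98 in NCE and 10.79, 10.74 and 10.71 in CYGB+, a difference of 0.65 (SE 0.11, adjusted p = 0.0392). The second slide's NCE array, however, read 10.74 for PSEN2, as the median CYGB+ array did (10.74), and the difference on that slide was 0.01 (SE 0.17, 95% interval -0.40 to 0.42). With slide as a term it was 0.02 (SE 0.18, adjusted p = 0.996), and without the 4 arrays 0.63 (SE 0.10, adjusted p = 0.0106).

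Of 13 ubiquitin ligases and adaptors, ITCH, a ligase that acts on Notch, fell, reading 7.77, 8.08 and 8.00 in NCE and 7.26, 7.01 and 7.28 in CYGB+ (difference -0.77, SE 0.11, adjusted p = 0.023). The second slide alone gave -0.58 (SE 0.21, adjusted p = 0.509), and the fit without the 4 arrays -0.84 (SE 0.10, adjusted p = 0.00389). Of 9 genes of the nuclear complex EP300, a histone acetyltransferase recruited by it, fell by 0.30 on the log2 scale (SE 0.05, adjusted p = 0.0417), with -0.27 (SE 0.12, adjusted p = 0.662) on the second slide and -0.23 (SE 0.04, adjusted p = 0.0166) without the 4 arrays. Of 4 genes for fringes and receptor glycosylation POFUT1, which adds fucose to Notch, fell by 0.41 (SE 0.08, adjusted p = 0.0436). Its probe was near background, being well above it on 8 of 9 NCE and 1 of 6 CYGB+ arrays, the second slide gave -0.66 (SE 0.20, adjusted p = 0.359), and the fit without the 4 arrays -0.43 (SE 0.08, adjusted p = 0.0183). The replicate number was also fitted as a block, a pairing that the labels do not state. In that fit ITCH, EP300 and POFUT1 no longer passed (adjusted p = 0.0605, 0.0852 and 0.0754). DLK2, APH1A and NEURL1B, named after their values were seen, did (differences -0.52, -0.36 and 1.02, adjusted p = 0.0467, 0.0417 and 0.028). None of the 8 repressors and none of the 6 further receptor and ligand genes was called. DLL3, DLL4 and the ligase DTX1 were, with HEY2 and HEYL, the 5 genes of the list well above background on no array.

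**Figure D4:**
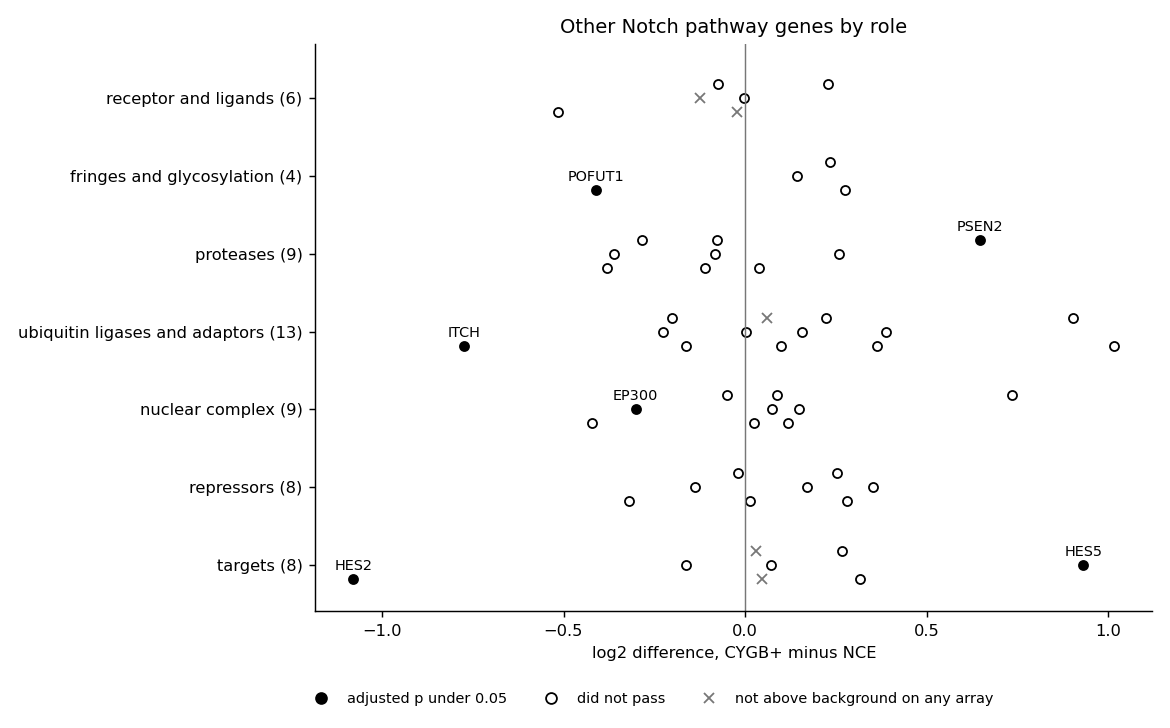
Log2 difference (horizontal axis, CYGB+ minus NCE) of 57 other Notch pathway genes, each by its brightest probe and grouped by role, with the number of genes in parentheses and small vertical offsets only to separate points. Filled points passed an adjusted p below 0.05, with HES5 (0.93) and PSEN2 (0.65) to the right and HES2 (-1.08), ITCH (-0.77), POFUT1 (-0.41) and EP300 (-0.30) to the left, and crosses mark the 5 genes not above background on any array.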

How the data were processed

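RNA of 3 NCE and 3 CYGB+ biological replicates was hybridised to Agilent SurePrint G3 arrays with 2 channels and read with Feature Extraction 10.7.3.1 (per the file headers, annotation build hg19). The deposited scanner files give green and red intensity per spot. The authors' deposited matrix holds 15031 named probes as scores on a log scale of unstated base, centred on each probe's CYGB+ median (column medians -0.161 to 0.183, slope on log2 green 0.564 to 0.755), used as an alternative only. Of 62976 spots, 4259 were controls. Here the green median signal, since the files used give no mean signal, was corrected with the local background by normexp (offset 50), control and outlier-flagged spots were removed (0.608 to 1.80% flagged), spots of a probe were averaged, and arrays were quantile normalised and taken to log2. Array repeats were averaged to 6 replicate means. CYGB+ and NCE were compared with limma 3.58.1 in R 4.3.3 (lmFit, eBayes, 2-sided, Benjamini-Hochberg over all probes, called below 0.05). The scripts were tested on simulated data. A gene was represented by its RefSeq probe with the highest mean signal, and names came from RefSeq accessions (25422 of 27310 probes matched). On the green channel 49.0 to 57.3% of probes were well above background. The number of replicates limits the precision. Replicates of 1 clone cannot give the spread between clones. Same-numbered replicates deviated together (r = 0.171, 0.186 and 0.249), but the best match was the own number for replicate 3 alone. The labels state no pairing. The main fit was unpaired, and the replicate number entered as a block only in an alternative.

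Alternatives were the processed signal, scaling to the 75th percentile, a normexp offset of 16, a filter for probes above background on at least 6 arrays, all arrays with the replicate as a random block (consensus correlation 0.0579), slide as a term, the second slide alone, the replicate block, eBayes with trend, the methods' t-test, the matrix, a mean over a gene's probes and leaving out each replicate. Leaving out the 4 arrays that stood apart or the NCE array of the second slide, and the processed signal on that slide, were chosen after seeing the data, as was the limit of 0.35 on the best correlation. The members and lists were chosen with earlier results of these data known. The rule for named genes took all members, CYGB, every called gene of the wider list and those above background on no array. The red channel, whose RNA the labels do not name, was not otherwise used. Probe sequences and a genome were not used here.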

Additional observations from a re-analysis of the deposited data

Results flagged for a closer look

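Each of the 13 member probes was examined on the arrays of each group for a single array far from its nearest neighbour relative to the group's range (Dixon's 95% value). Of 26 such groups 6 gave an array past the limit, where chance gives about 1 in 20, and 5 of the 6 were arrays that stood apart over all probes. CYGB+ replicate 1 array 1 was the highest for NOTCH1 A_33_P3370424 (9.46, next 7.98) and the lowest for NOTCH2 A_33_P3258824 (8.02, next 8.90), JAG1 (8.24, next 8.95) and NUMB (9.24, next 9.80). NCE replicate 3 array 2 was the lowest for NOTCH2 A_33_P3258824 (8.87, next 9.41). The remaining one was CYGB+ replicate 1 array 2, the highest for DLL1 (9.36, next 9.04), which did not stand apart. The red channel, which no comparison uses and whose RNA the labels do not name, had at least 50.6% of probes well above background on each array.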

How the results depend on the processing

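The numbers called (1055 higher and 922 lower over all probes, 0 and 1 of the 10 Notch genes, 2 and 4 of the 57 wider genes) moved with the processing, and JAG1 and the 6 wider genes called kept their direction in every setting they were measured in. The processed signal gave 619 and 545 over all probes and 1 wider gene higher, and with scaling to the 75th percentile 414 and 317, with 1 and 2 wider genes. That scaling moved the median of all probes to -0.11. Normexp with the 75th percentile gave 980 and 849 over all probes, 1 Notch gene higher (JAG2), and 5 and 2 wider genes. An offset of 16 gave 1209 and 1092 over all probes, and 5 and 4 wider genes. The filter on dim probes gave 1206 and 1169 of 22357 probes, and 5 and 4 of 48 wider genes. With trend, eBayes gave 935 and 910 over all probes, and 5 and 3 wider genes. The matrix, with 6 Notch and 40 wider genes, gave 764 and 680 of 15031 probes, and 5 and 1 wider genes. All arrays with a random replicate block gave 2838 and 2707 over all probes, 1 and 2 Notch genes, and 8 and 9 wider genes. That fit counted array repeats almost as independent. Slide as a term gave 322 and 558, 0 Notch genes lower, and 1 and 2 wider genes. The second slide alone gave 35 and 115 (87 and 287 with the processed signal), 0 Notch genes lower, and 0 and 1 wider genes with either signal. The methods' t-test gave 81 and 69, 0 Notch genes lower, and 0 and 0 wider genes. At an unadjusted p below 0.05 it gave 11 and 10 wider genes, with 17.7% of all probes. Without the 4 arrays that stood apart there were 2667 and 2513, 2 Notch genes lower, and 5 and 7 wider genes. Leaving out 1 replicate at a time gave 189 to 1104 higher and 202 to 884 lower over all probes, 0 to 1 Notch genes in each direction, and 0 to 3 higher and 0 to 3 lower in the wider list. The fit with the replicate number as a block gave 866 and 864 over all probes, 0 and 1 Notch genes, and 3 and 3 wider genes. Apart from the 6 wider genes given with it and KRT14, it changed no other call on a named gene. LFNG A_23_P8452, called without NCE replicate 1 (0.82), was -0.50 on the second slide. Outside the slide, t-test and replicate settings JAG1 kept its call, with -1.71 to -1.06 over all settings (the latter on the matrix scale) and adjusted p of 9.9e-10 to 0.582. The 9.9e-10 came from normexp with the 75th percentile. In that fit the adjusted p of the member probes followed the size of the difference and not their replicate spread. The causes were not tested. Only 1 NCE array shares a slide with CYGB+, which limits what can be told of the slide.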
